A study of Mus musculus with 25 samples.

Results

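Eya1, Sall3, Pou3f4, Foxa2 and Zfhx3 are 5 regulators of embryonic development among the 24015 gene symbols listed in each of the 2 deposited expression tables. They were chosen from measured values, for their higher normalized counts in resistant mouse basal cell carcinomas and in 1 tumour labelled sensitive, so their tumour values are given as a description with no test. Their response in a cultured basal cell carcinoma line, which the choice did not use, was tested. Their relatives were tested in the cells and in the same tumours, but the lists were drawn up with earlier results of these data known. Of the 5 genes, 5 passed the filter on low values in the tumours and 3 passed it in the cell line.

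The 8 tumours were 4 resistant and 4 sensitive basal cell carcinomas of C57BL6 mice of 1 genotype, written as Ptch+/-, K14 Cre-ER, p53 fl/fl. Ptch is the inhibitory Hedgehog receptor, K14 Cre-ER is an inducible recombinase driven by the keratin 14 promoter of basal keratinocytes, and p53 is the floxed tumour suppressor. All 8 tumours, the sensitive ones included, came from mice given an inhibitor of Smo, the activator of the Hedgehog pathway, by mouth. The cells were ASZ001, 1 mouse basal cell carcinoma line that the labels call resistant, treated with CCG-1423, with vismodegib or with vehicle, in 3 libraries each. Vismodegib inhibits Smo, and CCG-1423 inhibits signalling through the transcription factor SRF and its actin-regulated coactivator MRTF. Neither ages nor doses nor times of treatment appear in the labels.

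Developmental regulators of this kind switch on the gene programmes of embryonic organs and are mostly silent in the adult tissues that no longer need them. Eya1 has no DNA-binding domain of its own. It is a phosphatase and coactivator that works with homeodomain proteins such as Six4 in a network with Pax and Dach proteins in ear, kidney and branchial development. Sall3 is a zinc finger protein of the spalt family with roles in palate, nerve and limb development. Pou3f4 is a POU homeodomain factor of the inner ear and neural tube. Foxa2 is a forkhead factor that opens closed chromatin in endoderm, and in the floor plate of the neural tube it is switched on by Hedgehog signalling. Zfhx3 is a very large protein with many zinc fingers and several homeodomains, with known roles in neuronal differentiation and as a tumour suppressor in human prostate. Gli1, Gli2 and Gli3 are the transcription factors through which Hedgehog signalling acts.

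The bases before the start sites of 3 of the genes are shown because the compounds given to the cells act on pathways that end in SRF and GLI factors, whose motifs were among those searched. The 250 bases before the start site were read from RefSeq (GRCm38.p6) for Pou3f4 at chrX:110814129-110814378 on the plus strand, for Foxa2 at chr2:148046970-148047219 on the minus strand and for Zfhx3 at chr8:108714394-108714643 on the plus strand. Foxa2 has 3 listed start sites, of which the most upstream is shown. Capitals mark every match, on either strand, to the motifs searched.
Pou3f4: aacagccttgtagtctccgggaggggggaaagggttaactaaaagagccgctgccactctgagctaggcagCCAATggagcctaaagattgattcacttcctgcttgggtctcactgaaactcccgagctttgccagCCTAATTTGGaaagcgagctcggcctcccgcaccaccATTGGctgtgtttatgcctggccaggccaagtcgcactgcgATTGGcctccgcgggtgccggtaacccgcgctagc
Foxa2: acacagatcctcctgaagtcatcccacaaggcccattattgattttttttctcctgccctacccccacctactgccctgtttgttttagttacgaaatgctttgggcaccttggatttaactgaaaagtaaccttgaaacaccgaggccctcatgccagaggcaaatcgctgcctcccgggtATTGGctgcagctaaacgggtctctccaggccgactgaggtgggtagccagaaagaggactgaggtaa
Zfhx3: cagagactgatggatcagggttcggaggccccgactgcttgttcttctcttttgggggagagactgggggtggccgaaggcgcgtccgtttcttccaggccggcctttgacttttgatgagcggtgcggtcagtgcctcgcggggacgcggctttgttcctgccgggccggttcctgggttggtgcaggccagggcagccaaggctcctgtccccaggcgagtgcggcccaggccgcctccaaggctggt
The letters searched were GACCACCCA for GLI, TGTTTAC or its variant TGTTTGC for forkhead factors, ATGCAAAT for the octamer of POU factors and CATTCC for TEAD factors. CCAAT stood for the NF-Y box, TATAAA for the TATA box and GGGCGG for the GC box, and the CArG box that SRF binds was searched by its usual consensus. The Pou3f4 window holds 3 CCAAT matches, at -179, -76 and -35 from the start site, and 1 CArG box, CCTAATTTGG, whose first base lies at -113. None of these matches overlap. The Foxa2 window shown holds 1 CCAAT match at -68, and the Zfhx3 window holds none of the motifs. Of the Foxa2 windows not shown, the second holds GC boxes at -160 and -71. The third holds a GC box at -239 and a TATA match at -208. Of 32851 promoter windows of the same length, 33.8% held CCAAT, 32.7% the GC box, 12.6% the TEAD letters, 12.4% the TATA letters and 1.47% a CArG box. The forkhead letters were in 3.17% and, as the variant, 4.30% of windows, the octamer in 1.60% and the GLI letters in 0.225%, and none of these is in the windows shown. The GC content was 58.0% for Pou3f4, 50.8% for Foxa2 and 66.0% for Zfhx3, beside a median of 52.4% over all windows. A match is a description of letters and not evidence of binding.

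Reads at genes numbered 17537094 to 20014426 in the resistant tumours and 14161398 in sensitive tumour 4, with 8111252 to 11125956 in the other 3 sensitive tumours. They numbered 32024887 to 41040633 with CCG-1423, 30455530 to 35561668 with vismodegib and 32192090 to 44017757 with vehicle. A count of 0 allows up to 3 reads, or 2.09 to 4.97 normalized counts in a tumour library and 2.45 to 3.40 in a cell library, for counting error only. Sensitive tumour 4 stood apart from its group. With all 8 tumours 17 of 15076 genes passed an adjusted p of 0.05, a background of 0.113%, and without sensitive tumour 4 it was 20.6% of 15479 genes higher and 19.4% lower in resistant tumours. Transcripts of the Y chromosome were at 0 in the 4 resistant tumours and in sensitive tumour 4, and summed to 1965 to 2507 normalized counts in sensitive tumours 1 to 3. Sex and response therefore cannot be told apart without sensitive tumour 4. Pou3f4 is X-linked. The labels do not say whether libraries are separate animals or cultures, so each p-value reflects the variation among these libraries alone, whether biological or technical.

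Eya1 had 1635, 3500, 1636 and 794 normalized counts in resistant tumours 1 to 4. In the sensitive tumours it had 12.7, 4.24, 6.62 and 1774 normalized counts, of which the last belongs to sensitive tumour 4. That tumour lay inside the resistant range, and sensitive tumours 1 to 3 held 18 Eya1 reads between them. The mean was 1891 ± 1144 in resistant tumours (SD, n = 4) and 7.84 ± 4.34 in sensitive tumours 1 to 3 (SD, n = 3), a ratio of 241. The fitted difference between resistant and sensitive tumours was 5.72 ± 1.65 on the log2(normalized count + 1) scale with all 8 tumours and 7.66 ± 0.50 without sensitive tumour 4 (± SE, as for all fitted values). In a tumour library, fewer cells with a transcript and less of it per cell cannot be told apart.

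Sall3 followed the same division of tumours. Resistant tumours 1 to 4 had 616, 2007, 1868 and 1220 normalized counts, and the sensitive tumours had 5.76, 11.3, 9.94 and 923. Sensitive tumour 4 again lay inside the resistant range, above resistant tumour 1. The ratio of means between resistant tumours and sensitive tumours 1 to 3 was 159, and the fitted log2 differences were 5.42 ± 1.40 with all tumours and 7.06 ± 0.42 without sensitive tumour 4.

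Pou3f4 had 264, 71.8, 453 and 117 normalized counts in resistant tumours 1 to 4, and 0, 0, 4.97 and 25.3 in sensitive tumours 1 to 4. Here sensitive tumour 4, with 25 reads, lay below every resistant tumour and above the other sensitive ones, which held 3 reads in all. The resistant mean was 8.94 times the value of sensitive tumour 4, and 137 times the mean of sensitive tumours 1 to 3. The fitted log2 differences were 5.66 ± 1.08 with all tumours and 6.63 ± 0.81 without sensitive tumour 4.

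Foxa2 was the most even of the 5 genes among resistant tumours, at 394, 323, 458 and 456 normalized counts. Sensitive tumours 1 to 3 had 0 reads each, and sensitive tumour 4 had 445 normalized counts. The resistant mean of 408 ± 63.8 (SD, n = 4) was at least 82.1-fold higher than sensitive tumours 1 to 3, taking 3 reads in the shallowest of those libraries as the limit. By the same limit sensitive tumour 4 was at least 89.6-fold higher. For Foxa2, then, the 5 tumours with the transcript spanned only 323 to 458 normalized counts.

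Zfhx3 had at least 176 reads in every tumour, whereas the other 4 genes had at most 11 reads in any of sensitive tumours 1 to 3. It had 1273, 1604, 2931 and 1220 normalized counts in resistant tumours 1 to 4, and 475, 369, 291 and 630 in the sensitive tumours. The groups did not overlap, and sensitive tumour 4 was the highest sensitive tumour but lay below all resistant ones. The resistant mean of 1757 ± 801 (SD, n = 4) was 4.64 times the mean of sensitive tumours 1 to 3 and 2.79 times the value of sensitive tumour 4. The fitted log2 difference was 1.95 ± 0.33 with all tumours and 2.14 ± 0.31 without sensitive tumour 4.

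**Figure D1:**
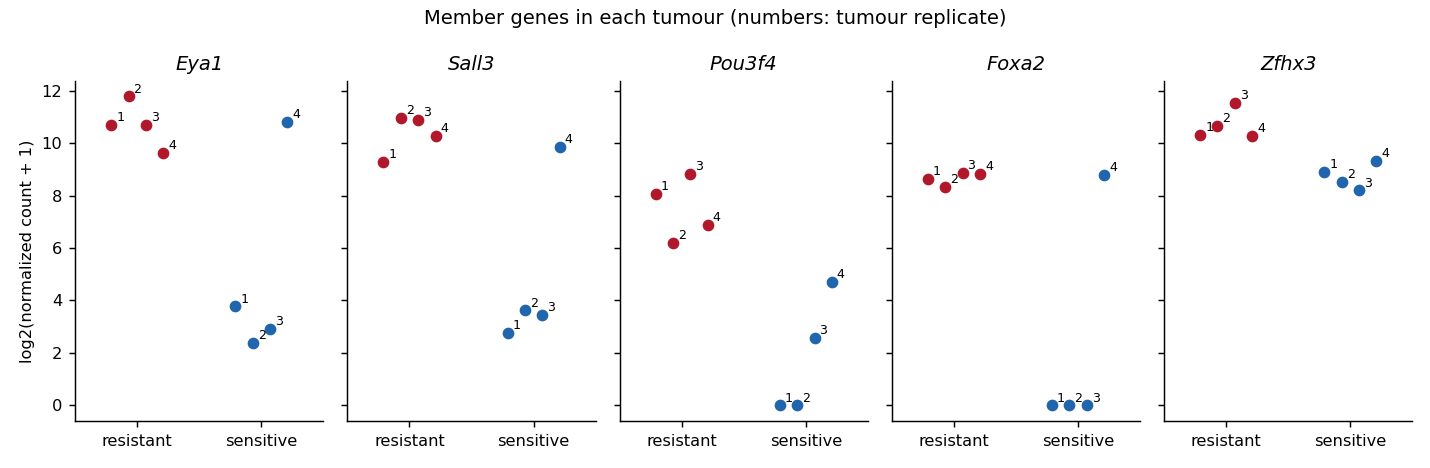
Log2(normalized count + 1) of the 5 genes in each tumour, with resistant tumours in red on the left and sensitive tumours in blue on the right of each panel, and points numbered by replicate. Sensitive tumour 4 sits among the resistant tumours for Eya1, Sall3 and Foxa2, and between the groups for Pou3f4 (25.3 normalized counts) and Zfhx3 (630 normalized counts).

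By size of difference with all 8 tumours, Foxa2 ranked 2, Eya1 3, Pou3f4 4 and Sall3 6 among the 15076 genes tested, whereas Zfhx3 ranked 482. These ranks describe how the genes were chosen. The log2 difference with all 8 tumours moved with the way the sensitive group was averaged. With edgeR, which averages counts, it was 1.85 for Foxa2, against 6.46 on the log scale, 2.06 for Eya1, against 5.72, and 2.57 for Sall3, against 5.42. Pou3f4 moved less, with 4.78 in edgeR and 5.66 on the log scale. The mean of the 4 sensitive tumours, 449 normalized counts for Eya1 and 238 for Sall3, came almost wholly from sensitive tumour 4. For Zfhx3 edgeR gave 1.98.

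The resistant tumours varied among themselves. The coefficient of variation over the 4 resistant tumours was 75.9% for Pou3f4, 60.5% for Eya1, 45.6% for Zfhx3, 44.9% for Sall3 and 15.6% for Foxa2, beside a median of 20.3% over 12489 genes. Different tumours carried the peaks: resistant tumour 2 was highest for Eya1 and Sall3, and resistant tumour 3 was highest for Pou3f4 and Zfhx3. Foxa2 was about equal in resistant tumours 3 and 4, at 458 and 456 normalized counts. Resistant tumour 2 was at the same time lowest for Pou3f4 and Foxa2. The highest resistant tumour exceeded the lowest by 6.31 times for Pou3f4, 4.41 times for Eya1, 3.26 times for Sall3, 2.40 times for Zfhx3 and 1.42 times for Foxa2.

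Placing sensitive tumour 4 inside the resistant range was not peculiar to Eya1, Sall3 and Foxa2. Of the 3183 genes higher in resistant tumours than in sensitive tumours 1 to 3, that tumour lay within the resistant range for 1869, or 58.7%, and above it for 847. It lay between the groups, as for Pou3f4 and Zfhx3, for 355 genes or 11.2%, and at or below the highest of sensitive tumours 1 to 3 for 112.

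The genes whose profiles over the 8 tumours came closest were taken by the root mean square difference of centred log2 values among 12160 genes. Sall3 came closest to Igf2os, at 0.52, and Igf2, the insulin-like growth factor of fetal growth, at 0.69. Igf2os overlaps Igf2 on the opposite strand, and no source states that counting used the strand, so reads of the pair may be mixed. Igf2 had 39334 to 67899 normalized counts in resistant tumours, 52927 in sensitive tumour 4 and 343 to 826 in sensitive tumours 1 to 3. Igf2os was also closest to Eya1, at 0.74, ahead of the cytokine receptor gene Il20ra at 0.77. Foxa2 was closest to the neutrophil-attracting chemokine gene Cxcl3, at 0.80. The closest to Pou3f4 were the protease genes Adamts16 at 1.02 and Mmp3 at 1.06. Among the members themselves, Eya1 lay 0.89 from Foxa2 and 0.90 from Sall3.

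The closest to Zfhx3 were Six4 at 0.30, Dlg2, a synaptic scaffold gene, at 0.35 and Dab2, an endocytic adaptor gene, at 0.37. Six4 encodes a homeodomain partner of Eya1. Six4 had 162 to 322 normalized counts in resistant tumours, 91.2 in sensitive tumour 4 and 23.2 to 70.2 in sensitive tumours 1 to 3. Dab2 had 3044 to 6168 normalized counts in resistant tumours, 1644 in sensitive tumour 4 and 1211 to 1509 in sensitive tumours 1 to 3. Dlg2 had 329 to 488 in resistant tumours and 71.2 to 172 in sensitive tumours 1 to 3, a range that included sensitive tumour 4, at 137. Likeness was measured over the same 8 libraries that set each profile, and it carries no test. The distance grows with the size of a gene's changes, so distances of different members cannot be ranked against each other.

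**Figure D2:**
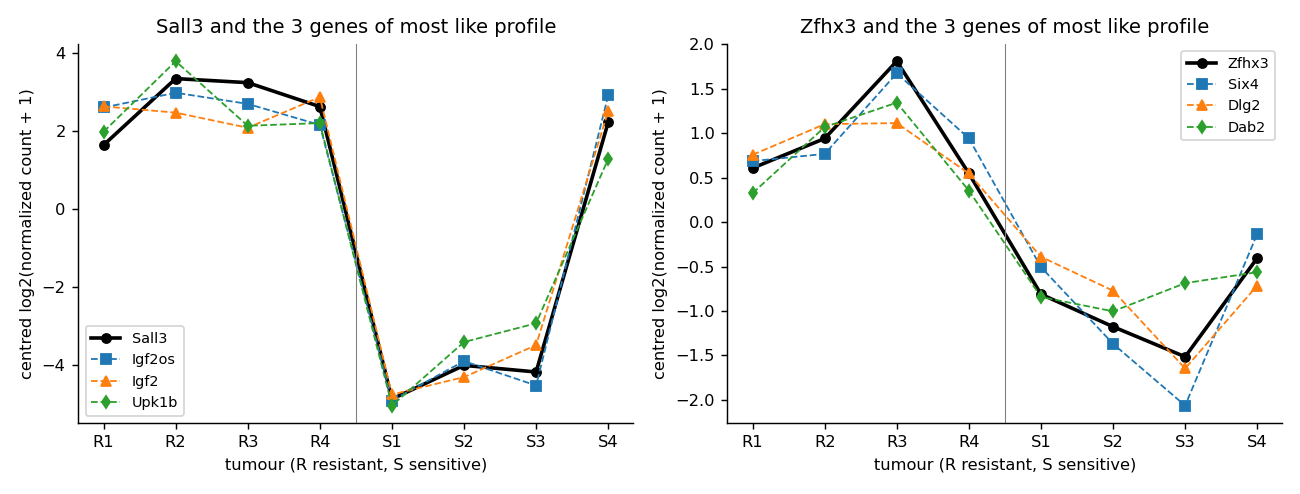
Centred log2(normalized count + 1) of Sall3 (left) and Zfhx3 (right) in black with the 3 genes of most like profile, across resistant tumours R1 to R4 and sensitive tumours S1 to S4. Sall3, Igf2os and Igf2 are high in R1 to R4 and S4, whereas Zfhx3, Six4 and Dab2 peak in R3 and are intermediate in S4. Upk1b in S4 lies below R1 to R4, and Dlg2 in S4 lies within the range of S1 to S3.

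With all 8 tumours, 0 of 133 tested genes of the related lists passed with limma, where 48 had an unadjusted p under 0.05. It was 0 with edgeR and 19 with DESeq2. The following changes are therefore those of resistant tumours against sensitive tumours 1 to 3, in which sex and response cannot be told apart. The remaining sensitive tumour was left out because its values stood apart from its group. That choice was made on the measured values and narrows the spread within the sensitive group. The adjusted p-values of this comparison therefore describe the tumours kept and are not an unbiased test of resistance. The counts of each list stand beside a background of 20.6% of all tested genes higher and 19.4% lower in that comparison. Eya1's own network was mixed. Of 18 genes of this network (Pax, Dach, Six4-related and other Eya genes) 7 were tested, and 1 was higher and 1 lower. Six4 rose by a log2 fold change of 2.33 ± 0.40 (adjusted p = 0.00251). Eya3, a paralog of Eya1, fell by 0.60 ± 0.15 on the log2 scale (adjusted p = 0.0135), a call lost without sensitive tumour 2 (adjusted p = 0.0646) and at the threshold without sensitive tumour 3. The other paralogs did not pass: Eya2 averaged 545 ± 488 normalized counts in resistant tumours and 255 ± 40.6 in sensitive tumours 1 to 3, and Eya4 averaged 28.5 ± 14.7 and 16.6 ± 10.99 in the same groups. Dach1, a corepressor of the network, averaged 111 ± 60.6 normalized counts in resistant tumours and 75.0 ± 28.8 in sensitive tumours 1 to 3.

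Among the paralogs of Sall3, Sall2 rose by 0.83 ± 0.20 (adjusted p = 0.0109), with 391 ± 39.5 normalized counts in resistant tumours and 223 ± 50.9 in sensitive tumours 1 to 3. Sall4 had 0 to 8.74 normalized counts in resistant tumours, 37.5 in sensitive tumour 4 and 0 in sensitive tumours 1 to 3, and Sall1 did not exceed 3.498 in any tumour. Pou3f1, a POU factor of keratinocytes and Schwann cells, fell by 2.59 ± 0.47 on the log2 scale (adjusted p = 0.00329), to 13.0 ± 8.21 normalized counts in resistant tumours, against 75.7 ± 19.98 in sensitive tumours 1 to 3. Sensitive tumour 4 had 14.2 normalized counts of Pou3f1. Pou2f3 fell by 4.03 ± 0.62 (adjusted p = 0.0016). Pou3f2 and Pou3f3 stayed at or below 1.75 normalized counts in all tumours. Of 13 POU relatives 7 were tested, with 1 higher and 3 lower.

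Foxa1 had 0 to 6.34 normalized counts in resistant tumours and 0 in all 4 sensitive tumours, and Foxa3 had 0.741 to 1.75 in resistant tumours and 0 to 27.6 in sensitive ones. Neither was tested in the tumours. Of 25 forkhead relatives tested, 4 were higher and 3 lower, shares below that background, with a median log2 fold change of -0.17 beside 0.02 over all genes. Foxm1, a cell cycle regulator, rose by 2.36 ± 0.30 (adjusted p = 0.000754). Foxo4 fell by 1.13 ± 0.20 (adjusted p = 0.00332) and Foxi3, a factor of hair and tooth placodes, fell by 2.93 ± 0.82 (adjusted p = 0.022). The Foxi3 call was lost when any of sensitive tumours 1 to 3 or resistant tumour 1 was left out (adjusted p = 0.0515 to 0.0699).

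Zfhx4, the nearest relative of Zfhx3, rose by 4.71 ± 0.32 (adjusted p = 6.30e-05). It averaged 6249 ± 2049 normalized counts in resistant tumours and 230 ± 61.7 in sensitive tumours 1 to 3, and it had 3556 in sensitive tumour 4. Zhx3 fell by 0.73 ± 0.14 (adjusted p = 0.00434), and Zfhx2 did not pass, at 253 ± 63.7 in resistant tumours and 323 ± 52.8 in sensitive tumours 1 to 3. Of the 10 genes of the zinc finger homeobox list, 1 was higher and 1 lower.

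Among 81 other developmental transcription factors tested, 11 were higher and 25 lower. Dlx1, a homeobox gene of forebrain interneurons, rose by 2.65 ± 0.24 (adjusted p = 0.000201) and Twist1, a factor of the mesoderm and neural crest, by 3.05 ± 0.51 (adjusted p = 0.00232). Irx5 fell by 3.02 ± 0.45 (adjusted p = 0.00148). Of 12 Hedgehog genes tested, 6 were higher and 3 lower. Gli2, the main activator of the pathway, rose by 2.89 ± 0.21 (adjusted p = 7.59e-05), with 17093 to 25362 normalized counts in resistant tumours, 22854 in sensitive tumour 4 and 2187 to 3630 in sensitive tumours 1 to 3. Gli1, a target and effector, rose by 1.98 ± 0.27 (adjusted p = 0.000977).

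The sums of some lists of cell type markers moved along with this division of tumours, and those of others did not. The 8 basal keratinocyte markers were all present and summed to 69286 to 119362 normalized counts in resistant tumours, 109493 in sensitive tumour 4 and 210625 to 291200 in sensitive tumours 1 to 3. Among them Itgb4 overlapped between the groups, at 3980 to 18587, 8074 and 3991 to 6298 in the same order, and so did Col17a1. The 5 neutrophil markers found summed to 5716 to 8748, 15790 and 634 to 1049 in the same groups. The 6 Schwann cell markers summed to 1410 to 2934, 2187 and 598 to 911, carried by Ngfr, while Sox10, which defines the lineage, had 0 to 4.37 normalized counts in resistant tumours, 0 in sensitive tumour 4 and 15.0 to 49.7 in sensitive tumours 1 to 3. The 6 Merkel and neuroendocrine markers summed to 3487 to 6555, 3866 and 1076 to 2174, carried by Ncam1, while Atoh1, which defines Merkel cells, was at 0 in every tumour. Endothelial markers summed to 2540 to 4750, 2800 and 1750 to 1978, and the 6 melanocyte markers to 394 to 558, 419 and 818 to 896. Tek and Kdr of the endothelial list and Pmel and Mlana of the melanocyte list overlapped between resistant tumours and sensitive tumours 1 to 3. Vehicle-treated ASZ001 cells, normalized separately, summed to 2516 to 2614 for the endothelial and 2040 to 2187 for the melanocyte markers. Neither sum is therefore particular to its cell type. At lower levels, the 5 adipocyte markers summed to 68.1 to 462, 199 and 26.8 to 36.4 in the same tumour groups, with Adipoq at 0 to 3.17, 0 and 1.41 to 4.60. The 6 skeletal muscle markers summed to 65.6 to 993, 127 and 24.8 to 49.5. Sums of the fibroblast, smooth muscle, macrophage, T and NK cell and neuron markers overlapped between resistant tumours and sensitive tumours 1 to 3. So did those of differentiated keratinocytes, hair follicle keratinocytes, sebaceous gland and dermal papilla. An overlapping sum could hide markers that lay apart. Krt10 had 65.9 to 116 normalized counts in resistant tumours, 115 in sensitive tumour 4 and 694 to 1740 in sensitive tumours 1 to 3. Krt1, Krt2, Sbsn and Cdsn were also lower in resistant tumours, Lor was higher, and Krtdap and Ivl overlapped. Lgr5, Sox9 and Krt71 of hair follicle keratinocytes and Dcn and Dpt of fibroblasts were lower, and the rest of both lists overlapped. The part of these cell types in the 5 genes' values was not tested.

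In ASZ001 cells the 5 genes separated into 2 that were all but missing and 3 that were measured. The tables of tumours and cells were normalized separately, so levels are set side by side as CPM, the reads of a gene scaled to the library's total at genes, without a test. Foxa2 had 28.3 in resistant tumours, 31.0 in sensitive tumour 4 and 0 in sensitive tumours 1 to 3 and in vehicle-treated cells. Sall3 averaged 99.98 CPM in resistant tumours, 0.687 in sensitive tumours 1 to 3 and 0.0733 in vehicle-treated cells. Eya1 averaged 131 CPM in resistant tumours, 0.603 in sensitive tumours 1 to 3 and 10.2 in vehicle-treated cells. Pou3f4 averaged 15.6, 0.123 and 1.01 CPM in those groups, and Zfhx3 122, 29.1 and 52.8. The line labelled resistant thus lay between the resistant tumours and sensitive tumours 1 to 3 for Eya1, Pou3f4 and Zfhx3, and outside the resistant range for all 5 genes.

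Treatment did not bring Foxa2 or Sall3 above the filter on low values. Foxa2 had 1 read in each of the 3 CCG-1423 libraries and 0 reads in all vismodegib and vehicle libraries. Sall3 had 1 read in each CCG-1423 library, 2, 3 and 9 reads with vismodegib and 3, 2 and 3 reads with vehicle. Of these values, only the 9 reads of Sall3 in vismodegib replicate 3 exceed the limit of 3 reads. With no filter on low values, limma passed Foxa2 as higher with CCG-1423 than with vehicle (adjusted p = 0.0146), which is 1 read against 0 in each library and within what a count of 0 allows. Against vismodegib it passed Foxa2 as higher (adjusted p = 0.0146) and Sall3 as lower with CCG-1423 (adjusted p = 0.0115).

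Zfhx3 showed the clearest response in the cells. It had 3614, 3193 and 2975 normalized counts with CCG-1423, 1638, 1517 and 1517 with vismodegib and 1750, 1919 and 2070 with vehicle. All CCG-1423 values lay above all vehicle values and all vismodegib values lay below them. CCG-1423 raised Zfhx3 by a log2 fold change of 0.77 ± 0.07 against vehicle (adjusted p = 2.22e-08), a fold of 1.70. Vismodegib lowered it, with a log2 fold change of -0.29 ± 0.07 against vehicle (adjusted p = 0.0163). The vismodegib call was lost without vismodegib replicate 2 (adjusted p = 0.0856) or 3 (0.0948) and without vehicle replicate 2 (0.0734) or 3 (0.0996). Between the compounds themselves, whose doses and times the labels do not state, CCG-1423 exceeded vismodegib by 1.06 ± 0.07 on the log2 scale (adjusted p = 3.88e-10).

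Eya1 had 445, 457 and 460 normalized counts with CCG-1423, 401, 404 and 378 with vismodegib and 357, 378 and 379 with vehicle. All CCG-1423 values exceeded all others, while the vismodegib and vehicle ranges overlapped. Against vehicle the log2 fold change was 0.29 ± 0.06 for CCG-1423 (adjusted p = 0.000424) and 0.09 ± 0.06 for vismodegib (adjusted p = 0.493), with a 95% interval of -0.04 to 0.22 for vismodegib. CCG-1423 exceeded vismodegib by 0.20 ± 0.06 (adjusted p = 0.0066).

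Pou3f4 went the other way. It had 24.6, 26.8 and 23.2 normalized counts with CCG-1423, 29.1, 29.0 and 35.8 with vismodegib and 35.1, 42.6 and 31.7 with vehicle. Every CCG-1423 value was below every vehicle value, and the vismodegib values overlapped with vehicle. The log2 fold change against vehicle was -0.53 ± 0.20 for CCG-1423 (adjusted p = 0.0225) and -0.21 ± 0.20 for vismodegib (adjusted p = 0.636, 95% interval -0.64 to 0.21). With 22 to 43 reads per library, the CCG-1423 call was not firm: it was lost with no filter on low values (adjusted p = 0.0587), with DESeq2 (0.0797), without CCG-1423 replicate 3 (0.0606) and without vehicle replicate 2 (0.101). CCG-1423 and vismodegib differed by -0.32 ± 0.20 (adjusted p = 0.15, 95% interval -0.74 to 0.11).

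**Figure D3:**
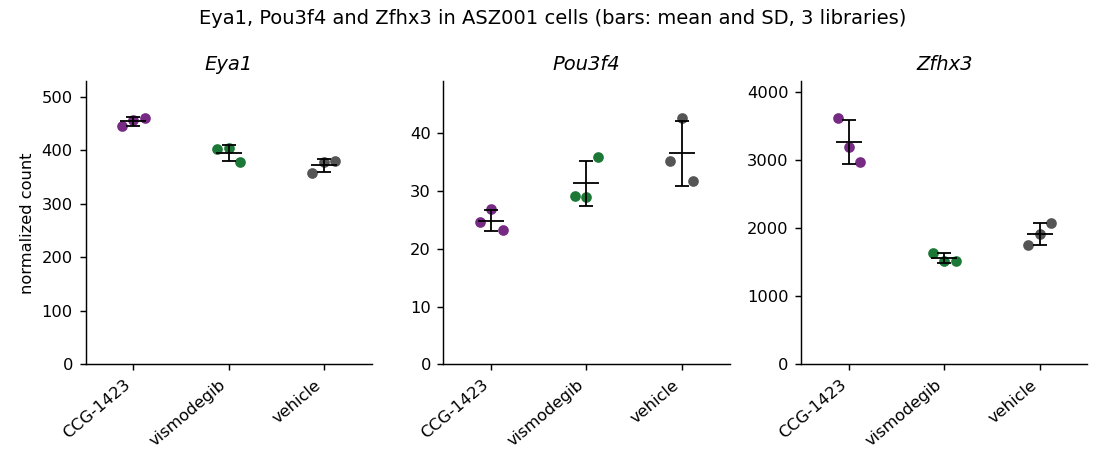
Normalized counts of Eya1, Pou3f4 and Zfhx3 in ASZ001 cells with CCG-1423, vismodegib or vehicle, as points for the 3 libraries with the mean and SD. CCG-1423 values lie above vehicle for Eya1 (445 to 460) and Zfhx3 (2975 to 3614) and below it for Pou3f4 (23.2 to 26.8).

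With CCG-1423, then, 2 of the 3 tested members were higher and 1 lower (3 of 5 higher and 0 lower with no filter, where Foxa2 entered and Pou3f4 was lost), in a comparison in which 42.8% of 12775 genes were higher and 42.6% lower, so most genes of the table passed in one direction or the other. With vismodegib 1 of 3 was lower, where 1.58% of genes were higher and 3.92% lower. Between CCG-1423 and vismodegib 2 of 3 were higher, where 42.4% of genes were higher and 42.4% lower. In absolute size, the Zfhx3 change with CCG-1423 was smaller than the 90th percentile of all genes, 1.80 on the log2 scale, while its change with vismodegib was larger than that percentile there, 0.27. With CCG-1423 the absolute change lay at percentile 62.4 of all tested genes for Zfhx3, 46.9 for Pou3f4 and 27.2 for Eya1. The basal keratinocyte markers, all 8 present in the cells, summed to 311052 to 328133 normalized counts with CCG-1423, 1436250 to 1462870 with vismodegib and 1452160 to 1484610 with vehicle; their part in the CCG-1423 results was not tested. Both compounds were compared with the same vehicle libraries.

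The relatives of Eya1 and Zfhx3 changed in both directions with CCG-1423, as did the genes of the whole table. The list counts here and below stand beside 42.8% of all tested genes higher and 42.6% lower with CCG-1423. With vismodegib these shares were 1.58% and 3.92%. Of 10 genes of the Eya1 network tested, 4 were higher and 2 lower with CCG-1423, and 2 were lower with vismodegib. Six4, the gene nearest to Zfhx3 in the tumours, rose with CCG-1423 by a log2 fold change of 1.89 ± 0.07 and fell by 0.33 ± 0.07 with vismodegib (adjusted p = 0.0103, but 0.0536 without vismodegib replicate 2 and 0.0615 without vehicle replicate 1). It had 860 ± 36.9 normalized counts with CCG-1423, 184 ± 7.15 with vismodegib and 232 ± 9.49 with vehicle (SD, n = 3 each). Pax9 rose by 2.01 ± 0.13 with CCG-1423. The paralog Eya4 fell by 1.45 ± 0.08 with CCG-1423, to 204 ± 16.0 normalized counts, against 556 ± 43.9 with vehicle.

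Zfhx2 fell by 1.91 ± 0.08 on the log2 scale with CCG-1423, to 172 ± 7.52 normalized counts, against 653 ± 63.1 with vehicle, and so went opposite to Zfhx3. Zfhx4, which had the largest rise of that list in the tumours, fell by 0.18 ± 0.07 with CCG-1423 (adjusted p = 0.022), a call lost without CCG-1423 replicate 3 (adjusted p = 0.135) or vehicle replicate 2 (0.0869) or 3 (0.0778). Zeb1, a repressor of epithelial genes, rose by 2.28 ± 0.10. In the whole list of 10 zinc finger homeobox genes, 5 were higher and 4 lower with CCG-1423 and 2 were lower with vismodegib.

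Foxa1, the paralog of Foxa2 that was near 0 in the tumours, was present in the cells and rose with CCG-1423 by 1.05 ± 0.18 (adjusted p = 4.61e-05). It had 61.6 ± 4.83 normalized counts with CCG-1423, 26.5 ± 2.81 with vismodegib and 29.1 ± 2.19 with vehicle. Of 25 forkhead relatives tested, 15 were higher and 6 lower with CCG-1423, and 2 were higher and 2 lower with vismodegib. Pou3f1, at 913 ± 54.2 normalized counts with vehicle, rose with CCG-1423 by 0.32 ± 0.07 (adjusted p = 0.000363), opposite to Pou3f4. Sall2 fell by 0.64 ± 0.09 with CCG-1423 (adjusted p = 1.16e-05) and averaged 354 ± 21.0 normalized counts with vismodegib and 353 ± 3.62 with vehicle.

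The Hedgehog target Gli1 fell with both compounds, by 1.72 ± 0.09 with CCG-1423 and by 2.28 ± 0.09 with vismodegib. It had 367 ± 45.3 normalized counts with CCG-1423, 247 ± 22.0 with vismodegib and 1207 ± 102 with vehicle. Gli2 fell by 0.18 ± 0.06 with CCG-1423 (adjusted p = 0.0138) and by 0.23 ± 0.06 with vismodegib (adjusted p = 0.0382). The Gli2 calls were lost without CCG-1423 replicate 1 or vehicle replicate 2 for CCG-1423 (adjusted p = 0.0701 and 0.0512). For vismodegib they were lost when any vismodegib or vehicle library was left out (0.0880 to 0.157) and with scaling to total reads (0.0906). Of 9 Hedgehog genes tested, 3 were higher and 6 lower with CCG-1423, and 3 were lower with vismodegib. Of the members, Zfhx3 was lower with vismodegib and higher with CCG-1423, and Eya1 and Pou3f4 did not pass with vismodegib.

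**Figure D4:**
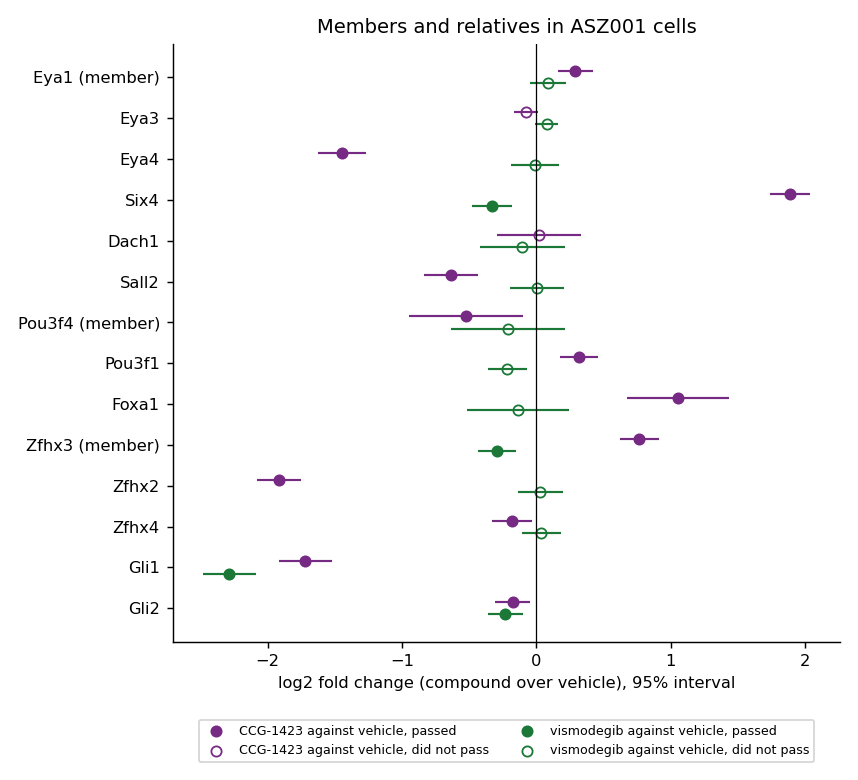
Log2 fold changes of members and relatives in ASZ001 cells with CCG-1423 (purple) and vismodegib (green), each against vehicle, with 95% intervals, filled where adjusted p was under 0.05. Zfhx3 lies at 0.77 with CCG-1423 and at -0.29 with vismodegib, while its relative Zfhx2 lies at -1.91 with CCG-1423.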

How the data were processed

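RNA of 8 tumours and 9 cell libraries was measured among 25 samples; the 8 exome samples were not analysed here. The deposited signal values are read counts normalized by the authors, who divided each library by its own size factor, separately in the tumour and cell tables; 100% of values gave whole reads within 0.01 read. The submitters' processing notes list TopHat, DESeq and mm9 without saying what each did. No source names the gene counter or says whether counting used the strand.

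Tests used limma 3.58.1 (R 4.3.3) on log2(normalized count + 1) with a variance trend, for genes with at least 10 in at least 4 tumour libraries (3 without sensitive tumour 4) or 3 cell libraries, 2-sided, with Benjamini-Hochberg adjustment over all tested genes and a threshold of 0.05. The fitted fold understates changes of low genes. The steps were also run on simulated data, whose groups held no library set apart. That run therefore does not cover a group such as the 4 sensitive tumours. Alternatives were edgeR 4.0.16 and DESeq2 1.42.0 on the recovered reads, other pseudocounts, filters and scaling, a robust fit, a replicate block and leaving out each library.

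The members and lists were chosen with earlier results of these data known. Relatives named are up to 6 passing genes per list of smallest p and mean of at least 50, and the close paralogs whatever their result, fewer where the text summarises; some genes of the lists are not reported here and enter no list count or likeness ranking. Of the 5 genes, 3 had a promoter window that was used.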

Additional observations from a re-analysis of the deposited data

Results flagged for a closer look

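In a group of 4 tumours, the highest or lowest value was set against the other 3, and 14 of 76 groups of the genes named had a value far from the rest. The 76 include groups with too few reads to be flagged, such as Foxa1 in resistant tumours with 10 reads. Chance marks about 1 group in 20 where genes are not chosen by these values. Here Eya1, Sall3 and Foxa2 were chosen for higher values in resistant tumours and in 1 sensitive tumour. Several other genes were named because they passed in the comparison without sensitive tumour 4. The number of flagged groups can therefore not be judged against that chance rate. Of the 14 flagged groups, 11 were sensitive tumour 4. Its values stood far above the other sensitive tumours for Eya1 (1774 normalized counts), Sall3 (923), Foxa2 (445), Sall4 (37.5), Zfhx4 (3556), Gli1 (1976), Gli2 (22854), Foxm1 (1383), Dlx1 (415) and Ptch1 (3138), and far below them for Irx5 (52.7).

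Among resistant tumours, tumour 4 was far below the others for Zfhx4 (3186 normalized counts) and far above them for Eya3 (622). Resistant tumour 3 was far above the others for Pou2f3 (17.4 normalized counts).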

How the results depend on the processing

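Counts of passing genes moved most in the tumours. The 17 genes passing with all 8 tumours became 0 with a pseudocount of 0.5, a filter of at least 50, scaling to total reads, a robust fit, edgeR and the replicate block, and 1638 with DESeq2; 3789 genes had an unadjusted p under 0.05. Leaving out each tumour gave 0 to 6184, the highest without sensitive tumour 4. Without that tumour, leaving out another gave 3859 (without sensitive tumour 2) to 6244, and the block gave 5798. Replicate numbers did not pair tumours: correlations of same-numbered deviations were -0.141, 0.045, 0.115 and -0.091. Scaling to total reads moved the median log2 difference there by -0.14, to 2510 higher and 3758 lower, against 3183 and 3001. With vismodegib, 703 genes became 3229 with that scaling (2923 higher and 306 lower, against 202 and 501), 1721 in a fit of only 2 groups, and 325 to 1491 leaving out each library (1491 without CCG-1423 replicate 1). Members passing with vismodegib then numbered 0 to 1. Between CCG-1423 and vismodegib, 2 members became 4 with no filter, where Foxa2 entered with 1 read in each CCG-1423 library against 0 with vismodegib, and Sall3 with 1 read against 2 to 9. The cause of the other shifts was not tested. In the cells the block changed no member's call. Members' log2 differences kept their direction under all alternatives run.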
